A study of Mus musculus with 10 samples.

Results

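Gluconeogenesis and its control by insulin were followed in mouse liver through 10 genes: the enzymes Pck1, G6pc, Fbp1 and Pcx, the insulin receptor gene Insr, its adaptors Irs1 and Irs2, the regulators Foxo1 and Sik1, and Igfbp1, a secreted protein whose gene insulin represses. The genes were picked by name, and every probe set whose annotated gene symbol is one of these names was taken, giving 22 of the 45101 probe sets on the array and 10 of the 18193 genes tested. The livers came from male B6C3F1/Crl mice, bred from a C57BL/6 male and a C3H/He female, which were 29 to 32 days old when obtained and settled for 5 days. In the phenobarbital group 5 mice drank water containing 0.05% (w/v) of the drug for 28 days and were killed on the last day, and 5 control mice served for comparison. Phenobarbital, a barbiturate sedative, activates the nuclear receptor CAR in hepatocytes and is a non-genotoxic liver carcinogen in rodents. RNA of each whole liver was hybridised to an Affymetrix array of its own, so each value below belongs to 1 animal. By its title the series belongs to work on liver 5-hydroxymethylcytosine under non-genotoxic carcinogens. The feeding state of the animals and the hour of sampling, on which these genes depend, are not stated in the labels.

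Gluconeogenesis makes glucose from lactate, amino acids and glycerol and keeps blood glucose up in fasting, when the liver is its main site. Glucagon, through cAMP and the factor CREB, raises transcription of Pck1 and G6pc, together with FOXO1 and its coactivator PGC-1alpha. Insulin acts through its receptor, the IRS adaptors, PI3-kinase and AKT, which moves FOXO1 out of the nucleus, so that Pck1, G6pc, Igfbp1 and Irs2, all genes that FOXO1 can activate, are repressed after a meal.

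Values are log2 expression levels as deposited, on which a difference of 1 is a doubling. A gene with several probe sets is represented by the one with the highest mean over the 10 arrays, and it is called higher or lower where limma's p, adjusted by Benjamini-Hochberg over all 18193 genes, is under 0.05. Fold changes are phenobarbital minus control on the log2 scale. The drug's known response was present, with Cyp2b10, its classical target, higher by 7.05 and Cyp2c55 by 4.15. Array medians lay between 5.42 and 5.50, and the number of arrays, 5 in each group, limits the precision. The arrays also differed in the signal of bacterial poly-A RNAs that are spiked into each sample. Their mean over 24 probe sets was 5.76 to 6.58 on the phenobarbital arrays and 7.77 to 8.64 on control replicates 1, 2, 3 and 5, with control replicate 4 at 6.40. By a two-sided exact permutation test the spike-in means differed with p = 0.0238 (0.0317 after Benjamini-Hochberg adjustment over 4 array measures). Since the high set held only controls, a fit with the set as a block compares the 5 phenobarbital arrays with control replicate 4 alone. That value is given for the 10 genes and for the list genes called in the full comparison as the value against control replicate 4. The set and the treatment otherwise cannot be told apart, and the part of the set in the results was not tested.

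Of the 10 genes, 4 were lower in phenobarbital livers (Pck1, Irs2, Insr and Foxo1) and 0 were higher, while 6 were not called. At an unadjusted limma p under 0.05 the counts were 5 lower and 0 higher. The share of all genes at that threshold was not counted, so this and the later unadjusted counts have no background beside them. Of all 18193 genes 20.3% were called, 11.3% lower and 9.02% higher. After quantile normalisation or median centring these shares were 8.45% or 8.42% lower and 12.7% or 12.0% higher, with the same 4 of the 10 genes lower and 0 higher in each case. When only the 9095 genes brighter than the median gene were fitted, 19.8% were called lower and 9.21% higher. All of the 10 genes but Sik1 were among these brighter genes. In 3 of the 10 genes (Irs2, Insr and Foxo1) every phenobarbital value lay below every control value, which 7.21% of all genes did, while 5.73% lay wholly above and 12.9% were separate in either direction. The median log2 fold change of the 10 genes was -0.33, beside 0.01 over all genes. With the spike-in set as a block 0 of the 10 genes passed limma's test, where 0.786% of all genes did. The median of the 10 genes in that fit was -0.19, beside -0.04 over all genes. Each of the 4 calls held in all 10 fits that left out 1 animal.

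**Figure D1:**
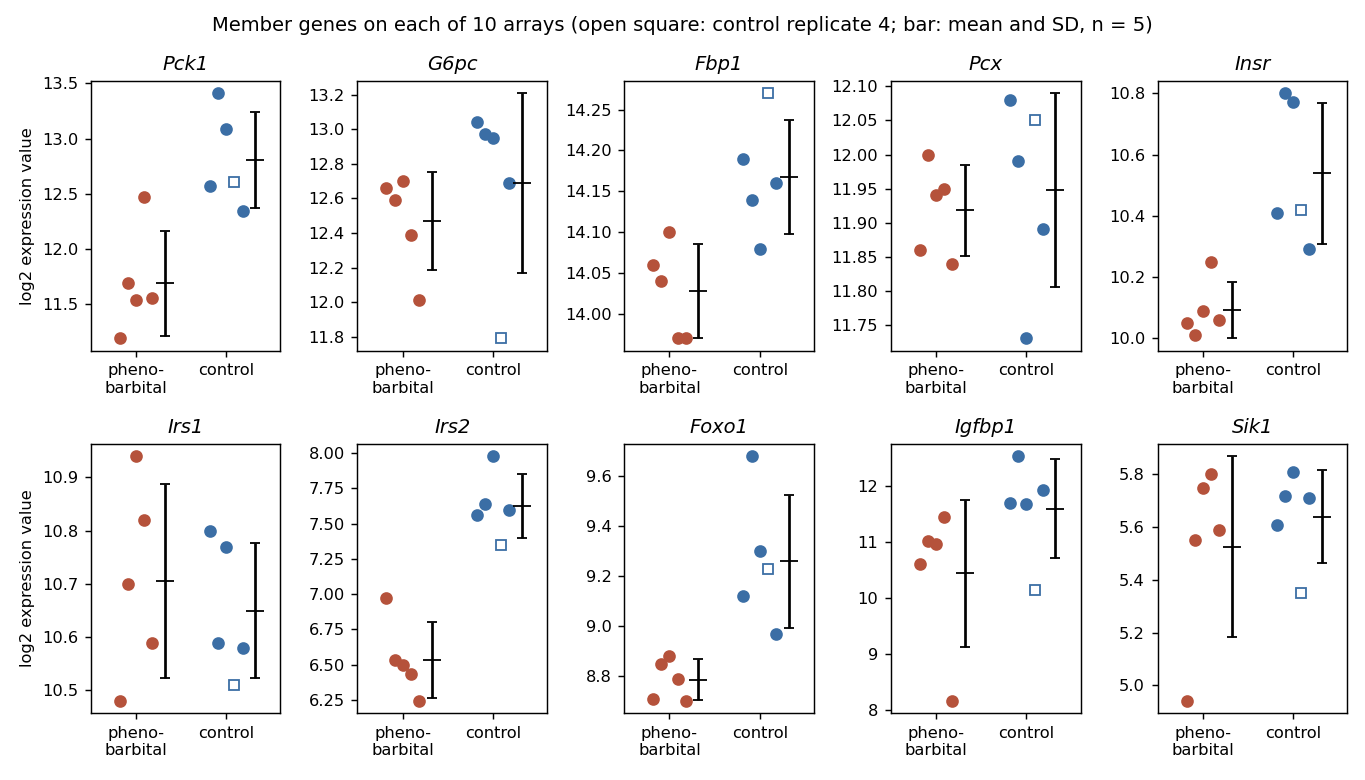
Level of each of the 10 genes (log2 expression value, a separate vertical scale for each gene) on the 5 phenobarbital arrays at the left and the 5 control arrays at the right of each panel, with the mean and SD beside the points and control replicate 4 as an open square. Irs2, Insr and Foxo1 show 2 groups that do not overlap, and the low points of G6pc at 11.79 and Igfbp1 at 8.16 stand apart from their groups.

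The promoters of 4 of the genes are shown with short letter matches to cAMP and insulin response cores marked where they were found. The RefSeq promoter table of GRCm38.p6 matched 8 of the 10 genes by symbol, with 9 windows, and did not list Insr and Sik1. The 250 bases before the start of Pck1 lie at chr2:173152823-173153072 (plus strand), those of G6pc at chr11:101367466-101367715 (plus), those of Igfbp1 at chr11:7197537-7197786 (plus) and those of Irs2 at chr8:11008930-11009179 (minus). Each is written 5′ to 3′ on the gene's strand and ends at the base before the start. Capitals mark the letters found in a search of both strands for CAAAACA, the core of the insulin response sequence, GTAAACA, a FOXO binding core, TGACGT, a cAMP response core, and TATAAA, the TATA box.
Pck1: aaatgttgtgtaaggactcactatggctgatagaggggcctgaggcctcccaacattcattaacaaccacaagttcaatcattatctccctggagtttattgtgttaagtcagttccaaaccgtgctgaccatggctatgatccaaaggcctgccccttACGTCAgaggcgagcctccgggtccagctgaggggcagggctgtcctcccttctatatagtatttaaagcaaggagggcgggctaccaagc
G6pc: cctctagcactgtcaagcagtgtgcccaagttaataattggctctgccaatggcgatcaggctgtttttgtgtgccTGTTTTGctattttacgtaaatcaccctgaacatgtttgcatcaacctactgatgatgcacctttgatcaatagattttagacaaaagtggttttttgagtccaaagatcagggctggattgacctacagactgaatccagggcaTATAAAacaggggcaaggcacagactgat
Igfbp1: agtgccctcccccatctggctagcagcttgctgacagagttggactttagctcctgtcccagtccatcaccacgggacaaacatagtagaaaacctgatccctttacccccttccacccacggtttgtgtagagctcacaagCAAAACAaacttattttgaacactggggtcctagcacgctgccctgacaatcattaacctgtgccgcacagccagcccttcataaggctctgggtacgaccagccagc
Irs2: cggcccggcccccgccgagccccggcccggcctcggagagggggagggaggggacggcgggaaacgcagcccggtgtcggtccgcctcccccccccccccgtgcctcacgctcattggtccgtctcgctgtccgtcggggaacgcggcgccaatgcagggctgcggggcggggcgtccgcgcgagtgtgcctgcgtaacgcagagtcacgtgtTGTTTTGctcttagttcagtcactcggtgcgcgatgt
The marked stretch of Pck1 is TGACGT read on the other strand, 91 to 86 bases before the start, a match that 6.47% of 32851 such windows hold. CAAAACA, held by 5.56% of windows, was found in G6pc at 174 to 168 bases, in Igfbp1 at 108 to 102 bases, in Irs2 at 37 to 31 bases and in Irs1 at 111 to 105 and at 32 to 26 bases before the start. TATAAA, held by 12.4% of windows, was found in G6pc at 29 to 24 bases before the start. GTAAACA, held by 3.17%, was not among the letters of any window of the 8 genes, and no marked stretches overlapped. Irs2, Irs1 and Foxo1 had 34, 28 and 20 CpG dinucleotides in these 250 bases, against 5 in Pck1, 2 in G6pc, 5 in Fbp1 and 5 in Igfbp1, and a median of 6 over all windows. The 2 windows of Pcx had 16 and 4. These matches are letters in a window and were not tested as binding sites. Only exact letters within 250 bases were sought. A window without a match can therefore still hold such an element in other letters, or the gene can have one farther away.

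Of the 4 enzymes of gluconeogenesis 1 was called. Pck1, the cytosolic phosphoenolpyruvate carboxykinase that turns oxaloacetate into phosphoenolpyruvate, was lower in phenobarbital livers, while the 3 other enzymes were not called. Pck1 was at 11.19, 11.69, 11.54, 12.47 and 11.56 on phenobarbital arrays 1 to 5, against 12.57, 13.41, 13.09, 12.61 and 12.34 on control arrays 1 to 5. Phenobarbital replicate 4 was the only treated animal within the control range, and the other 4 lay below every control. The means were 11.69 ± 0.474 in phenobarbital and 12.80 ± 0.435 in control livers (SD, n = 5 each), a log2 fold change of -1.11 ± 0.23 SE (95% interval -1.61 to -0.62, limma adjusted p = 0.00635), or 0.462 of the control level. Against control replicate 4 it was -0.92 (limma adjusted p = 0.356).

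The 2 other Pck1 probe sets were lower as well when all 45037 probe sets that are not array controls were tested singly, where 11.0% were called lower. The second was at 8.18 to 9.84 in phenobarbital and 9.28 to 10.81 in control livers (log2 fold change -1.13, limma adjusted p = 0.0224). The third lies near the bottom of the scale at 2.84 to 3.14 in phenobarbital and 3.21 to 3.93 in control livers, with no overlap (-0.64, limma adjusted p = 0.00445). Phenobarbital replicate 4 was the highest treated animal on the 2 brighter probe sets but not on the dimmest.

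G6pc encodes the catalytic subunit of glucose-6-phosphatase, the last step before glucose leaves the hepatocyte. It was at 12.66, 12.59, 12.70, 12.39 and 12.01 in phenobarbital livers, against 13.04, 12.97, 12.95, 11.79 and 12.69 in control livers. Control replicate 4 was the lowest of all 10 animals, and the other 4 controls overlapped the treated group only through control replicate 5 at 12.69 and phenobarbital replicate 3 at 12.70. The means were 12.47 ± 0.283 and 12.69 ± 0.519 (SD, n = 5; phenobarbital and control), a log2 fold change of -0.22 ± 0.21 SE (95% interval -0.68 to 0.24, limma adjusted p = 0.493). Without control replicate 4 it was -0.44 and was called (limma adjusted p = 0.0302), so the call depended on this 1 control. The fold change was negative in all 10 fits that left out 1 animal (-0.44 to -0.10). Against control replicate 4 alone it was 0.68.

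Fbp1, fructose-1,6-bisphosphatase, was at 13.97 to 14.10 in phenobarbital and 14.08 to 14.27 in control livers, near the top of the scale. Its log2 fold change was -0.14 ± 0.06 SE (95% interval -0.27 to -0.01, limma adjusted p = 0.115) and -0.24 against control replicate 4. Pcx, the mitochondrial pyruvate carboxylase that supplies oxaloacetate, was at 11.84 to 12.00 in phenobarbital and 11.73 to 12.08 in control livers. The Pcx fold change was -0.03 ± 0.07 SE (95% interval -0.19 to 0.13, limma adjusted p = 0.809), and -0.13 against control replicate 4.

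Pcx also serves on this array as a control of transcript length, with 4 further probe sets that are not among the tested ones. The 3′ probe set averaged 11.47 ± 0.10 in phenobarbital and 11.51 ± 0.14 in control livers, and the 5′ probe set 8.05 ± 0.05 and 8.27 ± 0.14 (SD, n = 5 each). The 3′ minus 5′ difference was 3.35 to 3.54 in phenobarbital and 3.16 to 3.43 in control livers, where control replicate 4 had the 3.43 and the other 4 controls 3.16 to 3.22. The groups differed in it by a two-sided exact permutation test (p = 0.0397, and 0.0397 after Benjamini-Hochberg adjustment over 4 array measures), so the balance of signal between the ends of this transcript was not the same in both groups. The same difference went the other way for Actb, at 1.25 ± 0.06 in phenobarbital and 1.54 ± 0.18 in control livers (exact permutation p = 0.0238, Benjamini-Hochberg 0.0317). For Gapdh it was -0.28 to -0.21 in phenobarbital and -0.15 to -0.03 in control livers, with no overlap and control replicate 4, at -0.15, on the side of the controls (exact permutation p = 0.00794, Benjamini-Hochberg 0.0317). For Actb, control replicate 4 was at 1.28, within the phenobarbital range of 1.19 to 1.33. The other 4 controls were at 1.46 to 1.78. The part of these end differences in the other results was not tested.

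Whether 2 genes differed in their change was read from their difference within each array, for all 45 pairs of the 10 genes, which was added after the data were seen. By a two-sided exact permutation test 19 pairs had an unadjusted p under 0.05, and 9 passed after Benjamini-Hochberg adjustment over the 45. None of the 3 pairs of Pck1 with another enzyme was among the 9. Pck1 minus Pcx was -0.23 ± 0.445 in phenobarbital and 0.86 ± 0.49 in control livers (SD, n = 5 each), a difference of -1.08 with overlapping groups (exact permutation p = 0.0238, adjusted 0.0765). The difference was -0.97 for Pck1 minus Fbp1 (exact permutation p = 0.0317, adjusted 0.084) and -0.90 for Pck1 minus G6pc (exact permutation p = 0.0476, adjusted 0.113). Against control replicate 4 they were -0.79 (Pcx), -0.68 (Fbp1) and -1.60 (G6pc). A fall of Pck1 beyond that of the other enzymes did not pass this test.

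**Figure D2:**
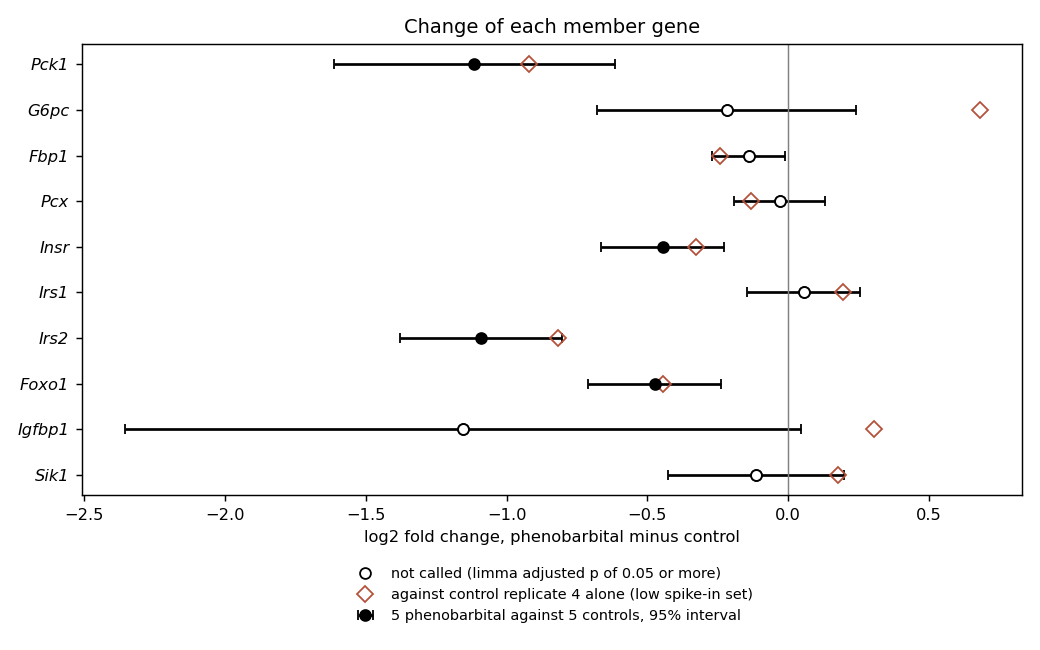
Log2 fold change of each of the 10 genes, phenobarbital minus control, on the horizontal axis with its 95% interval (n = 5 in each group; filled points are called by limma), and the value against control replicate 4 as an open diamond. Pck1, Irs2, Insr, Foxo1, Fbp1 and Pcx lie below 0 by both readings and Irs1 above 0 by both, while G6pc, Igfbp1 and Sik1 change sign.

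The insulin receptor and 1 of its 2 adaptors were lower. Insr, the receptor tyrosine kinase, was at 10.05, 10.01, 10.09, 10.25 and 10.06 in phenobarbital livers, against 10.41, 10.80, 10.77, 10.42 and 10.29 in control livers. Every treated animal lay below every control, by a gap of 0.04 between phenobarbital replicate 4 and control replicate 5. The means were 10.09 ± 0.093 in phenobarbital and 10.54 ± 0.231 in control livers (SD, n = 5 each), a log2 fold change of -0.45 ± 0.10 SE (95% interval -0.66 to -0.23, limma adjusted p = 0.01), or 0.734 of the control level, and -0.33 against control replicate 4 (limma adjusted p = 0.455). The other 2 Insr probe sets were far dimmer and were not called, with log2 fold changes of 0.02 (limma adjusted p = 0.892) and -0.08 (limma adjusted p = 0.571). With the mean of the 3 probe sets in place of the brightest the fold change was -0.17 and the call was lost (limma adjusted p = 0.056).

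Irs2, the adaptor that carries much of the receptor's signal in liver and is itself induced in fasting, had the smallest adjusted p of the 10 genes. It was at 6.97, 6.53, 6.50, 6.43 and 6.24 in phenobarbital livers, against 7.56, 7.64, 7.98, 7.35 and 7.60 in control livers. The groups were separated by 0.38, between phenobarbital replicate 1 and control replicate 4. The means were 6.53 ± 0.269 in phenobarbital and 7.63 ± 0.227 in control livers (SD, n = 5 each), a log2 fold change of -1.09 ± 0.13 SE (95% interval -1.38 to -0.80, limma adjusted p = 0.000314), or 0.469 of the control level. Against control replicate 4 it was -0.82 (limma adjusted p = 0.133).

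Irs1, the other main adaptor of the receptor, was not called. It was at 10.48 to 10.94 in phenobarbital and 10.51 to 10.80 in control livers, with a log2 fold change of 0.06 ± 0.09 SE (95% interval -0.15 to 0.26, limma adjusted p = 0.703) and of 0.20 against control replicate 4. Within each array Irs2 minus Irs1 was -4.44 to -3.51 in phenobarbital and -3.24 to -2.79 in control livers, with no overlap. The change of Irs2 minus that of Irs1 was -1.15 (exact permutation, two-sided, p = 0.00794, the smallest that 5 against 5 can give, adjusted 0.0397 over the 45 pairs), and -1.01 against control replicate 4. The adaptors were already known to differ in this way when the pairs were formed, so the test adds no independent support. Each has 1 probe set, so neither value has a second reading.

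Foxo1, the forkhead factor that insulin inactivates through AKT, was at 8.71, 8.85, 8.88, 8.79 and 8.70 in phenobarbital livers, against 9.12, 9.68, 9.30, 9.23 and 8.97 in control livers. The groups did not overlap, with a gap of 0.09, and the controls spread more widely than the treated animals. The means were 8.79 ± 0.081 in phenobarbital and 9.26 ± 0.266 in control livers (SD, n = 5 each), a log2 fold change of -0.47 ± 0.11 SE (95% interval -0.71 to -0.24, limma adjusted p = 0.011), or 0.72 of the control level, and -0.44 against control replicate 4 (limma adjusted p = 0.351). Of the 3 dimmer Foxo1 probe sets, tested among all probe sets, none was called, with log2 fold changes of -0.19 (limma adjusted p = 0.117), -0.16 (limma adjusted p = 0.331) and 0.10 (limma adjusted p = 0.424). With the mean of the 4 probe sets the fold change was -0.18 and the call was lost (limma adjusted p = 0.108). The called probe set is of a kind that can match several transcripts, and on the brightest that matches a single one the call was lost too (-0.19, limma adjusted p = 0.11).

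Sik1, a kinase that CREB induces and that holds back CREB's coactivators, was at 4.94 to 5.80 in phenobarbital and 5.35 to 5.81 in control livers. The log2 fold change was -0.11 ± 0.14 SE (95% interval -0.43 to 0.20, limma adjusted p = 0.607), and 0.18 against control replicate 4. Its second probe set lies near the bottom of the scale at 3.39 to 3.55 in phenobarbital and 2.99 to 3.43 in control livers. It was the only probe set of the 18 tested that was called higher, where 7.70% of all probe sets were (0.30, limma adjusted p = 0.033). Its call did not hold without control replicates 2, 3 or 4 or without any 1 of the phenobarbital animals.

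Igfbp1, which binds insulin-like growth factors and is used as a readout of insulin action in liver, was the most variable of the 10 genes. It was at 10.61, 11.03, 10.97, 11.45 and 8.16 in phenobarbital livers, against 11.70, 12.54, 11.69, 10.14 and 11.93 in control livers. Phenobarbital replicate 5 and control replicate 4 were each the lowest of their group by more than 1 on the log2 scale. The means were 10.44 ± 1.31 in phenobarbital and 11.60 ± 0.886 in control livers (SD, n = 5 each), a log2 fold change of -1.16 ± 0.56 SE that was not called (95% interval -2.36 to 0.04, limma adjusted p = 0.157). It was -0.58 without phenobarbital replicate 5 (limma adjusted p = 0.29), -1.52 without control replicate 4 (limma adjusted p = 0.0536), and 0.30 against control replicate 4 (limma adjusted p = 0.92).

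**Figure D3:**
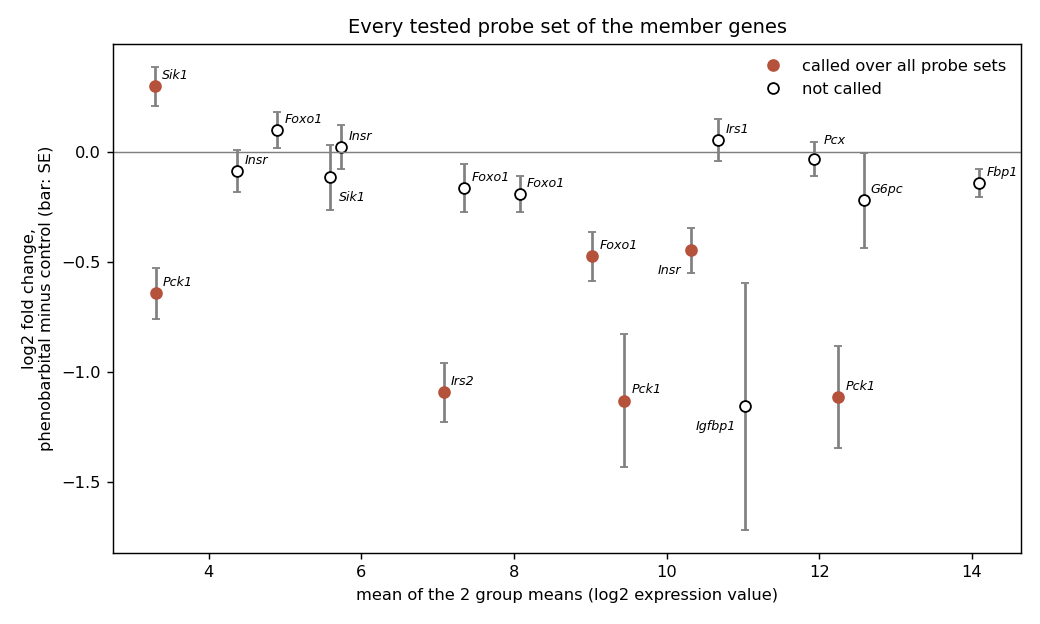
Log2 fold change (phenobarbital minus control, bar: SE, n = 5 in each group) of the 18 tested probe sets of the 10 genes against their mean log2 expression value over both groups. The 3 probe sets of Pck1 and the single one of Irs2 are called lower, while Insr and Foxo1 are called lower only by their brightest probe set, and the 1 probe set called higher belongs to Sik1.

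The animals did not rank the same way on all genes. Phenobarbital replicate 5 was the lowest treated animal for 5 of the 10 genes, and phenobarbital replicates 3 and 4 were each the highest for 4. Among controls, replicate 2 was the highest for 4 genes, and replicate 4 was the lowest for 5 (G6pc, Irs1, Irs2, Igfbp1 and Sik1) and the highest for Fbp1. The heat map of deviations from each gene's mean shows control replicate 4 at -0.8 for G6pc and -0.9 for Igfbp1 but at 0.4 for Pck1.

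**Figure D4:**
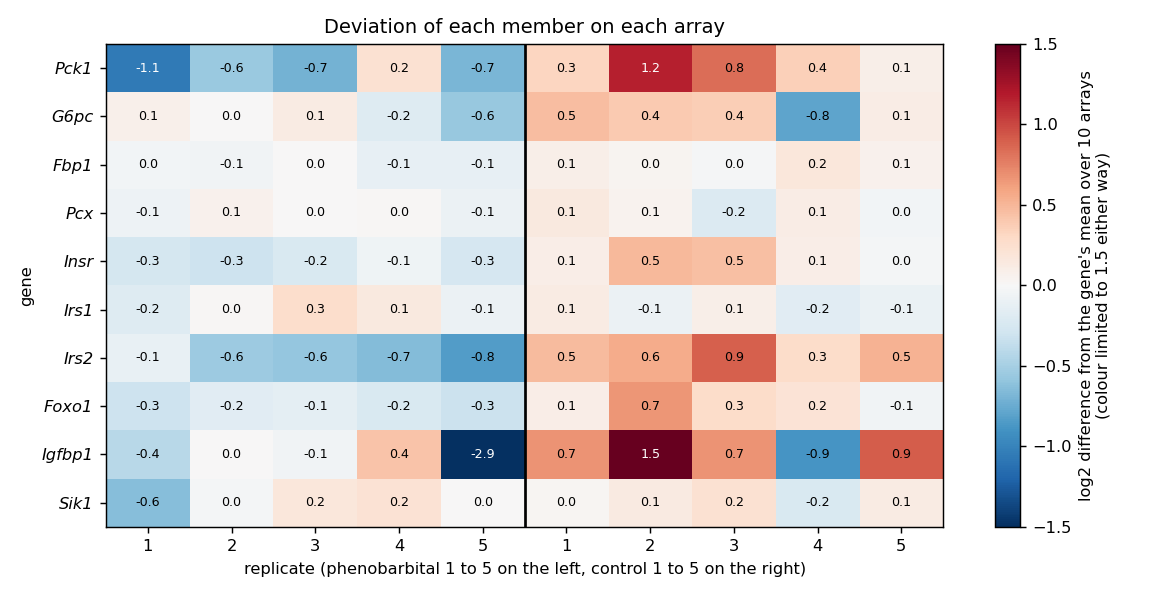
Deviation of each of the 10 genes (rows) from its mean over the 10 arrays, in log2 units, with phenobarbital replicates 1 to 5 at the left of the black line and control replicates 1 to 5 at the right. Irs2, Insr and Foxo1 are at or below 0 on all 5 phenobarbital arrays. The lowest value is Igfbp1 on phenobarbital replicate 5 at -2.9, which is past the limit of the colour scale.

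Among 13641 genes above the lower quartile of the table, the 3 with the smallest root mean square difference from each called gene over the 10 arrays, each centred on its own mean, were taken as a description without a test. For Pck1 they were Ocln (0.207), a tight junction protein, Arrdc2 (0.259) and Tmc7 (0.263). For Irs2 they were Zbtb7a (0.15), Etnppl (0.159) and Bambi (0.202), for Insr Map1lc3b (0.074), Zfp397 (0.079) and Mier1 (0.082), and for Foxo1 Tmem131 (0.078), Hsdl2 (0.087) and Eci2 (0.094). All differences are in log2 units over animals that share the same 10 arrays.

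The rest of the pathway was read in 14 lists of genes, which leave out the 10 genes in the counts that follow. Among 26 other gluconeogenic enzymes and carriers 3 were higher and 3 lower (11.5% each), where 9.02% of all genes were higher and 11.3% lower. Their median log2 fold change was 0.06, but -0.01 against control replicate 4. Tkfc, which phosphorylates glyceraldehyde, was higher by 0.37 (limma adjusted p = 0.0108, 0.57 against control replicate 4), and Slc25a11, the mitochondrial malate and oxoglutarate carrier, by 0.35 (limma adjusted p = 0.0102, 0.23 against that control). Pck2, the mitochondrial isoform of the Pck1 enzyme, had a fold change of -0.19 (limma adjusted p = 0.166, -0.23 against control replicate 4). The glucose-6-phosphate transporter Slc37a4, which works with G6pc, had one of 0.29 (limma adjusted p = 0.0694, 0.28 against that control).

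Of 30 genes of glucagon, cAMP and CREB signalling 1 was higher and 3 were lower, against 11.3% lower among all genes. The adrenergic receptor gene Adra1b was higher by 0.53 (limma adjusted p = 0.00548, 0.34 against control replicate 4), and Pde8a, a cAMP phosphodiesterase, was lower (-0.32, limma adjusted p = 0.0076, -0.20 against that control). The glucagon receptor Gcgr, at 0.03 (limma adjusted p = 0.799, -0.17 against control replicate 4), and the CREB coactivator Crtc2, at 0.06 (limma adjusted p = 0.622, -0.20 against that control), were not called. Of 22 genes induced by CREB or fasting, 2 were higher and 2 lower (9.09% each, beside 9.02% higher and 11.3% lower over all genes). Gadd45b, a stress-induced gene of that list, was higher by 1.28 (limma adjusted p = 0.000832) and by 1.81 against control replicate 4, where it also passed (limma adjusted p = 0.00728). Junb, an AP-1 factor of the same list that was chosen after its values were seen, passed against that control in the other direction (-1.42, limma adjusted p = 0.0342), with -0.41 against all 5 controls (limma adjusted p = 0.252). Control replicate 4 had the highest Junb value of all animals, 6.99, against 5.47 to 6.03 in the other controls. It had the lowest Gadd45b value of all animals, 6.50, against 7.10 to 7.29 in the other controls. Each pass thus rests on that control alone.

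The transcriptional regulators of gluconeogenesis were, of the 14 lists, the one with the largest share lower. Of 44 measured beside Foxo1, 18 (40.9%) were lower and 1 higher, where 11.3% of all genes and 19.8% of the brighter genes were lower. In 10 of the 44 every treated animal lay below every control. Their median log2 fold change was -0.24, and -0.20 against control replicate 4, where none was called by limma and 9 were lower and 0 higher at an unadjusted p under 0.05. After quantile normalisation 15 and after median centring 16 of the 45 genes of the list, Foxo1 included, were lower.

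Ppargc1a, which encodes PGC-1alpha, the coactivator that works with FOXO1 on Pck1 and G6pc, was at 7.39, 6.73, 6.97, 6.56 and 6.61 in phenobarbital livers, against 8.29, 8.83, 8.58, 7.77 and 7.89 in control livers. The groups did not overlap, and all 5 of its probe sets were called lower. Its log2 fold change was -1.42 ± 0.20 SE (limma adjusted p = 0.000959), and -0.92 against control replicate 4 (limma adjusted p = 0.24). Prox1, a homeobox corepressor, had a fold change of -1.70 (limma adjusted p = 0.00295) that was -0.39 against control replicate 4, and 2 of its 3 probe sets were called lower. Klf10, a zinc finger factor, was lower by the same test (-1.002, limma adjusted p = 0.0373), with control replicate 2 at 9.20 against 7.34 to 8.18 in the other controls, and was called in 6 of the 10 fits that left out 1 animal (-0.68 without control replicate 2, -0.58 against control replicate 4). Foxo3, a second FOXO factor, was lower (-0.51, limma adjusted p = 0.00358, -0.62 against control replicate 4), as was the deacetylase gene Sirt1 (-0.85, limma adjusted p = 0.0019, -0.52 against that control), and these 2 were chosen after their values were seen. Hnf4a, a main activator of hepatocyte genes, had a fold change of 0.09 (limma adjusted p = 0.336, -0.03 against control replicate 4).

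Downstream of the receptor, 3 of 37 genes of the path to AKT were higher (8.11%) and 6 lower (16.2%). Over all genes these shares were 9.02% and 11.3%, and 19.8% of the brighter genes were lower. With Insr, Irs1 and Irs2 included 6 of 40 were higher after quantile normalisation and 5 after median centring. Ceacam1, a membrane protein that promotes insulin clearance by the liver, was at 11.18, 10.08, 10.30, 10.23 and 11.01 in phenobarbital livers, against 11.71, 11.67, 12.04, 11.36 and 11.88 in control livers. Every treated animal was below every control, and 6 of its 8 probe sets were called lower. The log2 fold change was -1.17 ± 0.20 SE (limma adjusted p = 0.00267), -0.80 against control replicate 4, and -0.02 on the brightest probe set that matches a single transcript, where it was not called. Akt1 (0.17, limma adjusted p = 0.177), Akt2 (0.15, limma adjusted p = 0.187) and Pik3r1 (-0.28, limma adjusted p = 0.286) were not called, and were at -0.06 (Akt1), -0.05 (Akt2) and -0.30 (Pik3r1) against control replicate 4. Of 32 inhibitors of insulin signalling 1 was higher (3.12%) and 4 were lower (12.5%, beside 11.3% over all genes). Among the lower was Grb14, an adaptor that blocks the receptor's kinase (-0.40, limma adjusted p = 0.00271, -0.27 against control replicate 4, both probe sets called lower).

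Over all genes 11.3% were lower and 9.02% higher, and of the brighter genes 19.8% were lower. Of 29 other FOXO target genes 7 (24.1%) were lower and 0 were higher by limma's adjusted p. At an unadjusted p under 0.05, 14 were lower and 1 higher, and after quantile normalisation 1 was higher. Their median was -0.21. Pdk4, which restrains pyruvate oxidation in fasting, had a log2 fold change of -0.59 (limma adjusted p = 0.119) that was 0.46 against control replicate 4. Of 23 insulin-induced and lipogenic genes 10 (43.5%) were higher and 1 lower, where 9.02% of all genes were higher. The median of this list was 0.25, and 0.34 against control replicate 4. The part of insulin action in either list was not tested. Fatty acid synthase, Fasn, was higher by 0.98 (limma adjusted p = 0.0199, 0.84 against control replicate 4) with overlapping groups, while Srebf1, whose product induces it, was at -0.06 (limma adjusted p = 0.852, 0.14 against control replicate 4). None of these FOXO target or insulin-induced genes was called against control replicate 4, where 3 FOXO targets were lower and 1 higher and 2 insulin-induced genes were lower and 6 higher at an unadjusted p under 0.05.

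**Figure D5:**
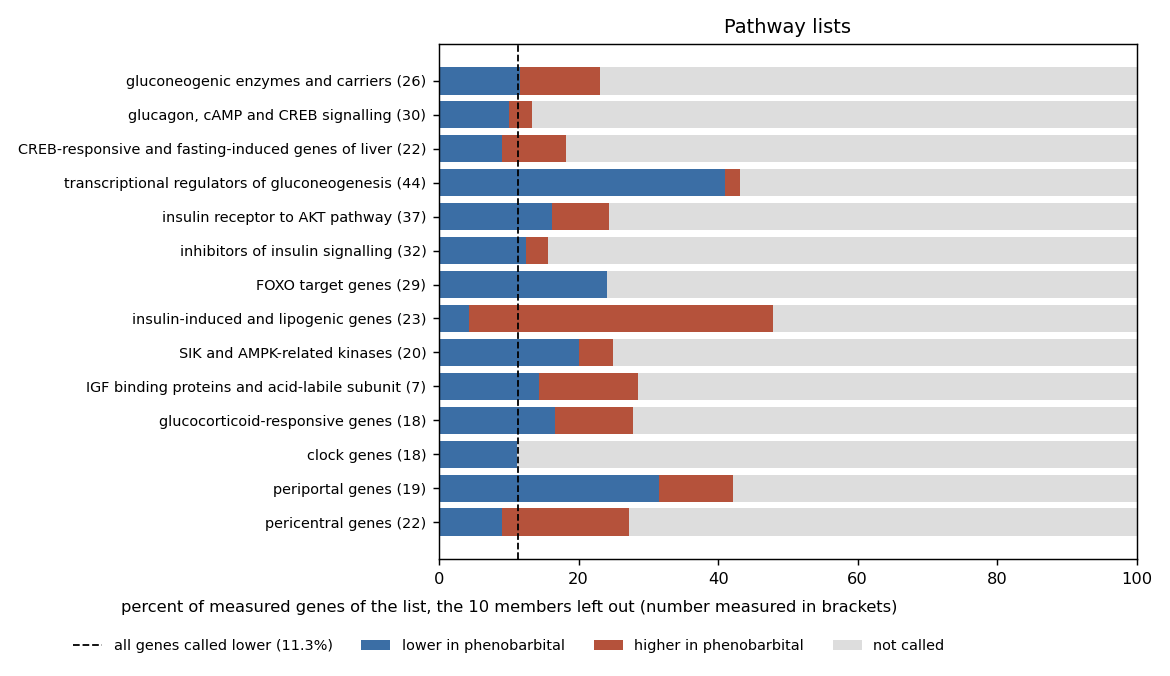
Share of the measured genes of each list (percent, the 10 genes left out, number measured in brackets) that limma called lower or higher in phenobarbital livers or did not call, with the 11.3% of all genes called lower as a dashed line. The regulators of gluconeogenesis (18 of 44 lower) and the insulin-induced and lipogenic genes (10 of 23 higher) differ most from the shares over all genes.

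The SIK and AMPK-related kinases beside Sik1 had 1 gene higher and 4 lower of 20. Among all genes 9.02% were higher and 11.3% lower, and 19.8% of the brighter genes were lower. The share of these kinases lower was thus near that of the brighter genes. Strada, an activator of LKB1, was higher by 0.53 (limma adjusted p = 0.00418, 0.32 against control replicate 4), although only 1 of 4 probe sets was called, and Sik2 was lower (-0.31, limma adjusted p = 0.0257, -0.19 against that control) but was called in 4 of 10 fits that left out 1 animal and by 1 of its 3 probe sets, which ranged up to 0.17. Of the 7 other IGF binding proteins and the acid-labile subunit, Igfbp2 was lower (-0.44, limma adjusted p = 0.026, -0.59 against control replicate 4, called in 7 of 10 such fits) and Igfbp5 higher (0.94, limma adjusted p = 0.0218, 0.53 against that control, called in 9 of 10, and by only 1 of its 2 probe sets). The median log2 fold change of that list was 0.05, but -0.36 against control replicate 4.

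Since Pck1, G6pc and Fbp1 are mainly expressed near the portal vein, genes of the 2 zones were counted. Of 19 other periportal genes 6 were lower and 2 higher (median -0.07), and of 22 pericentral genes 2 were lower and 4 higher (median 0.02, and -0.03 against control replicate 4). Beside these counts, 11.3% of all genes were lower and 9.02% higher, and 19.8% of the brighter genes were lower. The periportal share lower was above both shares lower, and the pericentral share higher was above that of all genes. Whether either list differed from all genes was not tested. Lgr5, a Wnt target of the pericentral list, was lower (-1.05, limma adjusted p = 0.000138) and passed against control replicate 4 (-1.07, limma adjusted p = 0.0374), but its other probe set was called higher (0.39). The median of the periportal genes was -0.16 against control replicate 4, and with Pck1, G6pc and Fbp1 included 7 of 22 were lower, or 4 after median centring. Etnppl, a periportal phospho-lyase, was at 10.77 to 11.40 in phenobarbital and 11.91 to 12.22 in control livers (-0.86, limma adjusted p = 0.000366, -0.77 against control replicate 4), and its other probe set was not called (-0.25). Ass1, a urea cycle enzyme, was lower on its only probe set (-1.502, limma adjusted p = 0.0199), with control replicate 4 at 6.82 within the treated range, and was at 0.04 against that control.

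Markers of endothelium and of stellate cells and fibroblasts were lower in larger shares than the 11.3% of all genes. Of 7 markers of sinusoidal and vascular endothelium 5 were lower and 0 higher (also 5 and 0 at an unadjusted limma p under 0.05), with a mean level of 7.64 to 8.09 in phenobarbital and 7.94 to 8.40 in control livers. Against control replicate 4 limma called 0 of them, 1 was lower and 0 higher at an unadjusted p under 0.05, and their median log2 fold change was -0.22, beside -0.32 against all controls. Of 7 markers of stellate cells and fibroblasts 3 were lower and 0 higher (3 and 0 unadjusted), with 8.14 to 8.47 in phenobarbital and 8.48 to 8.73 in control livers. Against control replicate 4 limma called 0 of these, with 3 lower and 0 higher unadjusted and a median of -0.50, beside -0.18 against all controls. The 8 hepatocyte markers had a mean of 14.23 to 14.31 in phenobarbital and 14.30 to 14.33 in control livers, with 1 lower. Of 10 Kupffer cell and leukocyte markers 0 were called (2 lower at an unadjusted limma p under 0.05), and 1 marker each was higher among 5 of cholangiocytes, 3 of red cell precursors and 6 of pancreas. The part of the endothelial and stellate cell markers in the lower Insr, Irs2 and Foxo1 was not tested, and in these bulk samples fewer cells of a type and less RNA per cell cannot be told apart. The extraction protocol also names kidney. The 7 kidney tubule markers averaged 5.06 to 5.25 in phenobarbital and 4.86 to 5.58 in control livers, where array medians were 5.42 to 5.50, and 0 were called. Umod, the most specific of them, was at 3.51 and 3.44 in the phenobarbital and control means, near the bottom of the scale. Whether these samples held kidney RNA was not tested.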

How the data were processed

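Whole liver RNA of 5 phenobarbital and 5 control mice was measured on Affymetrix arrays with 3′ IVT labelling, per the labels' protocols, and GCOS is named in the submitters' processing notes without a version. The authors deposited 1 log2 expression value per probe set and array, between 2.34 and 15.13. The log2 scale was inferred from these limits, and how the probes were summarised and normalised is not given in the sources used. The values were used as deposited, since array quartiles agreed to within 0.16. Gene symbols came from the platform annotation: beside 64 control probe sets, 34945 probe sets had 1 symbol, 932 had several and 9160 had none, and only those with 1 were used. The groups were compared in R 4.3.3 with limma 3.58.1 (functions lmFit and eBayes, two-sided, Benjamini-Hochberg over genes), and single values by exact permutation, whose smallest p is 0.00794. The fit was tested on simulated data with independent noise, a small share of genes, all lowered, and no spike-in set. That setting is simpler than these arrays, so the test does not cover the spike-in split. Figures were drawn with matplotlib 3.10.9.

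The 10 genes, the lists and the spike-in split were chosen with earlier results of these data known; 329 of 351 listed genes were measured, and the rest is not analysed here. Besides the 10 genes, up to 3 called genes of each list with the largest change were eligible for naming, and any other list gene named, such as Gcgr, Akt1 or Hnf4a, was chosen after its values were seen. Alternatives were median centring, quantile normalisation, the brighter genes, the mean of probe sets, single-transcript probe sets, every probe set singly, trend and robust variance, the replicate number and the spike-in set as blocks, and leaving out each animal.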

Additional observations from a re-analysis of the deposited data

Results flagged for a closer look

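G6pc on control replicate 4 stood apart from the other controls, at 11.79 where they lay between 12.69 and 13.04, a gap of 0.72 of the group's range. Igfbp1 on phenobarbital replicate 5 stood apart from the other treated animals, at 8.16 where they lay between 10.61 and 11.45, a gap of 0.745 of the range. Dixon's critical value for 5 samples is 0.71, and 44 groups of 5 were examined, of which these 2 passed, where chance gives about 1 in 20. The cause of either value was not tested.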

How the results depend on the processing

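The 4 calls of Pck1, Irs2, Insr and Foxo1 and the count of 0 genes higher held under median centring, quantile normalisation, the brighter genes alone (Sik1 falls out), every probe set singly, trend and robust variance, and every omission of 1 animal. Genes lower numbered 2 with the mean of probe sets (Insr and Foxo1 lost, since their dimmer probe sets moved less), 0 with the spike-in set as a block and 5 without control replicate 4 (G6pc added); Foxo1 also lost its call on single-transcript probe sets (-0.19), which leave out Pcx, and Fbp1 was called with trend and robust variance (-0.14, limma adjusted p = 0.0246). Genes called over the table numbered 8425 with every probe set singly, 143 with the spike-in block, and 2431 (without phenobarbital replicate 2) to 4610 (without control replicate 4) with 1 animal left out; 2460 were called without control replicate 2. Probe sets of the 10 genes called lower numbered 0 with the spike-in block, and those called higher 0 with it or with quantile normalisation and 0 to 1 with 1 animal left out. Directions turned for Pcx with median centring (0.004) and on omissions (-0.084 to 0.003), for Sik1 with the mean of probe sets (0.093), with the block (0.176) and on omissions (-0.186 to 0.032), for Irs1 on omissions (-0.003 to 0.112), and with the block for G6pc (0.68), Igfbp1 (0.304) and Ass1 (0.036); the cause was not tested. The replicate numbers do not pair the animals: deviations of same-numbered animals correlated at -0.024 to 0.116, and 2 of 5 animals correlated best with their own number. With the replicate block 3664 genes were called, and the same 4 of the 10 genes were lower. The 1 low-spike-in control and probe sets near the bottom of the scale limit what can be read.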

Other observations

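Among glucocorticoid-responsive genes, several of which also act in gluconeogenesis, 2 of 18 were higher (11.1%) and 3 lower (16.7%), with a median log2 fold change of -0.26. Over all genes 9.02% were higher and 11.3% lower. Angptl4, a lipase inhibitor induced in fasting, was lower (-1.48, limma adjusted p = 0.00716, -0.998 against control replicate 4), with control replicate 2 at 11.36 against 9.22 to 10.56 in the other controls, and was not called on its other probe set (-0.05). Klf9, a glucocorticoid-induced zinc finger factor, was at 11.88, 10.84, 11.07, 10.95 and 11.81 in phenobarbital livers, against 12.08, 12.40, 12.57, 12.21 and 12.18 in control livers. These groups did not overlap (-0.98, limma adjusted p = 0.00512, -0.90 against control replicate 4), and 5 of its 7 probe sets were called lower. Tat, a classical glucocorticoid target and a gluconeogenic aminotransferase, had a fold change of -0.03.

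Clock genes, whose levels depend on the hour of sampling, had 2 of 18 lower and 0 higher by limma's adjusted p (3 lower and 1 higher at an unadjusted p under 0.05), a share of 11.1% lower beside 11.3% over all genes. Clock was lower (-0.44, limma adjusted p = 0.00606, -0.23 against control replicate 4), as was Cry1 (-0.38, limma adjusted p = 0.0201, -0.45 against that control).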
